A study of Rattus norvegicus with 4 samples.

Results

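The insulin-like growth factor (IGF) genes were followed across the cell classes of the rat pituitary gland. The set held 9 genes, taken by symbol from the 32883 features of the deposited count matrix: the ligand Igf1, the receptors Igf1r and Igf2r, and the binding proteins Igfbp2, Igfbp3, Igfbp4, Igfbp5, Igfbp6 and Igfbp7. All 9 symbols were found once, and all 9 passed the low-count filter that left 13864 genes in the tests. Every library came from untreated female Sprague Dawley rats aged 75 days, taken at random stages of the estrous cycle. Glands of 30 rats were split into an anterior and a posterior part, which gave 1 library each, and 30 further glands were dispersed whole into a single suspension that was run on 2 lanes. All cells were freed with trypsin and EDTA and captured in droplets with the 10x Chromium 3′ v3 chemistry. According to the title, the series is about folliculostellate cells as astroglia and as stem cells. These are S100b-positive cells of the anterior lobe that make no hormone.

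IGF1 acts through the IGF1 receptor, a tyrosine kinase that works through insulin receptor substrates, PI3 kinase and AKT. The IGF2 receptor, which is also the cation-independent mannose 6-phosphate receptor, takes up IGF2 and carries lysosomal enzymes but has no kinase. The binding proteins are secreted and hold IGFs outside the cell, where they prolong the life of the ligand or keep it from the receptor. IGFBP7 is a relative with low affinity for IGFs. In the pituitary, IGF1 from blood and from local cells restrains growth hormone secretion, and growth hormone in turn drives Igf1 transcription in many tissues.

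After filtering, 19724 cells were analysed, between 3828 and 5516 per library, with a median of 9539 to 10592.5 unique molecular identifiers (UMIs) per cell. The posterior library stood apart in quality, since 45.4% of its barcodes exceeded 20% mitochondrial UMIs against 27.2% to 27.9% in the other libraries. Cell barcodes were shared between libraries in 35 cases. Cells were clustered without the 9 genes and without the pathway genes named below, and classes were named from marker genes, hence the ending "-like". Against the markers, 5 of 5 measured endothelial, 5 of 5 fibroblast, 5 of 5 lymphocyte and 4 of 4 Schwann cell markers were highest in the class of that name. The same held for 3 of 6 folliculostellate markers (S100b, Aldh1a2 and Krt18), with Sox2 and Sox9 slightly higher in pituicyte-like cells and Lhx3 in melanotroph-like cells, and for 4 of 7 pituicyte markers (Nkx2-1, Rax, Lhx2 and Col25a1), with Scn7a and Gfap higher in Schwann-like cells and S100b in folliculostellate-like cells. Of the hormone class markers, 3 of 5 lactotroph, 3 of 4 somatotroph, 2 of 4 corticotroph, 3 of 4 melanotroph, 4 of 5 gonadotroph and 3 of 3 measured thyrotroph markers were highest in their class. Avpr1b, a corticotroph marker, was at 0 in corticotroph-like cells. The class called Lyz2-rich myeloid had 2 of 6 macrophage markers at their highest and was kept apart from macrophage-like cells.

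Levels are given as counts per 1000000 UMIs of the class (CPM), first in the dissected and then in the whole-gland preparation. The dissected value comes from the anterior library for hormone and folliculostellate-like cells, from the posterior library for pituicyte-like and melanotroph-like cells, and from both for the rest. Each class was summed over its cells in each preparation, so that n is 2 preparations for every class. Classes were compared with each other, with a term for preparation. The p-values measure only the spread between these 2 preparations, pooled over the 13 classes. Intervals around single values cover counting error only. Capture at the 3′ end does not make levels comparable between genes, so each gene is compared with itself across classes.

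All 9 genes were highest in a class outside the hormone cells, by leads of unlike size. The mean of the leading class was between 1.52 (Igfbp7) and 32.8 (Igfbp6) times that of the next class. Igf1, Igfbp5, Igfbp6 and Igfbp7 were highest in fibroblast-like cells, Igfbp3 in endothelial-like cells, Igfbp2, Igfbp4 and Igf1r in pituicyte-like cells (pituicytes are astroglia of the posterior lobe), and Igf2r in lymphocyte-like cells. The leading class was the same for 9 of 9 genes when doublets were kept, under a stricter cell filter and without the anterior library or either whole-gland lane. Without the posterior library it was the same for 8, and Igfbp5 was then highest in folliculostellate-like cells. By the share of cells with a UMI, Igfbp5 was led by folliculostellate-like, Igfbp7 by endothelial-like and Igf2r by pituicyte-like cells. In edgeR's test, 1 class was set against the mean of the other 12 classes. Means over classes were taken on the log scale in this and the later contrasts. A gene was called where it changed at least 2-fold with an adjusted p (Benjamini-Hochberg) below 0.05. Fibroblast-like cells had 8 of the 9 genes called higher, where 17.6% of all tested genes were called higher, and 0 lower (5.22%). Endothelial-like cells had 7 called higher (23.3% of all genes) and 1, Igf1r, called lower (8.45%). Without the posterior library 5 were called higher there, since Igfbp6 was lost (adjusted p 0.106) and Igfbp2 turned from 1.62 to −0.23 on the log2 scale. The Igfbp2 call was also lost without the anterior library, with the dissected sums taken over both libraries, with DESeq2 and with limma-trend. Folliculostellate-like cells had 6 called higher (20.9%) and 0 lower (3.38%), and pituicyte-like cells 5 higher (19.2%) and 0 lower (7.8%). Hormone classes went the other way: somatotroph-like cells had 0 called higher (15.6%) and 4 lower (7%), corticotroph-like cells 0 higher (13.5%) and 4 lower (7.78%), thyrotroph-like cells 0 higher (10.8%) and 3 lower (6.71%). Gonadotroph-like cells had 2 called lower (7.39%) and melanotroph-like cells 2 (6.51%), with 0 higher in either (14.8% and 15.1%). Lactotroph-like cells stood between, with 2 called higher (15.7%) and 3 lower (6.43%). Of the immune classes, Lyz2-rich myeloid cells had 3 higher (16.5%) and 1 lower (7.12%). Macrophage-like cells had 2 higher (16.9%) and 1 lower (8.66%), and lymphocyte-like cells 1 higher (15.6%) and 3 lower (10.3%). Where a gene had no UMI in some class, the fitted size against the mean of all classes rests on how 0 is treated and is not quoted: this concerns Igf1, Igfbp3 and Igfbp6. In 15 tests of these 3 genes edgeR returned an adjusted p of 1 at a size past 2-fold, with no usable error, so the counts of lower calls leave them out. The limma-trend fit called all 15 lower. With it 7 genes were called lower in corticotroph-like, 6 in somatotroph-like, 6 in thyrotroph-like, 4 in melanotroph-like and 3 in gonadotroph-like cells. Folliculostellate-like cells then had 1 called lower, Igf1. Lymphocyte-like cells had 8 called lower, of which only 2 were among the 15 tests.

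Several of these counts rested on single libraries. Without the posterior library melanotroph-like cells had the whole-gland sum alone, so their calls are not counted. In that setting 2 genes each were called lower in corticotroph-like and somatotroph-like cells, and 1 each in thyrotroph- and gonadotroph-like cells. The lost calls were those of Igfbp2 and Igfbp4, again at an adjusted p of 1 except for Igfbp4 in gonadotroph-like cells (−0.11, adjusted p 0.987). Without the anterior library, 2 were called lower in corticotroph-like and 1 in gonadotroph-like cells, and Igf1r was no longer called higher in lactotroph-like cells. Thyrotroph-like cells, 12 in the posterior library, then had the whole-gland sum alone, so their calls are not counted. Their log2 fold changes were −1.57 for Igf2r and −2.69 for Igfbp2, and Igfbp4 had 0 UMIs in that sum. Without whole-gland lane 2, thyrotroph-like cells had 1 called lower and lactotroph-like cells 1 called higher. Without lane 1, endothelial-like cells had 0 called lower and macrophage-like cells 3, and without the posterior library lymphocyte-like cells had 5 called lower.

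**Figure D1:**
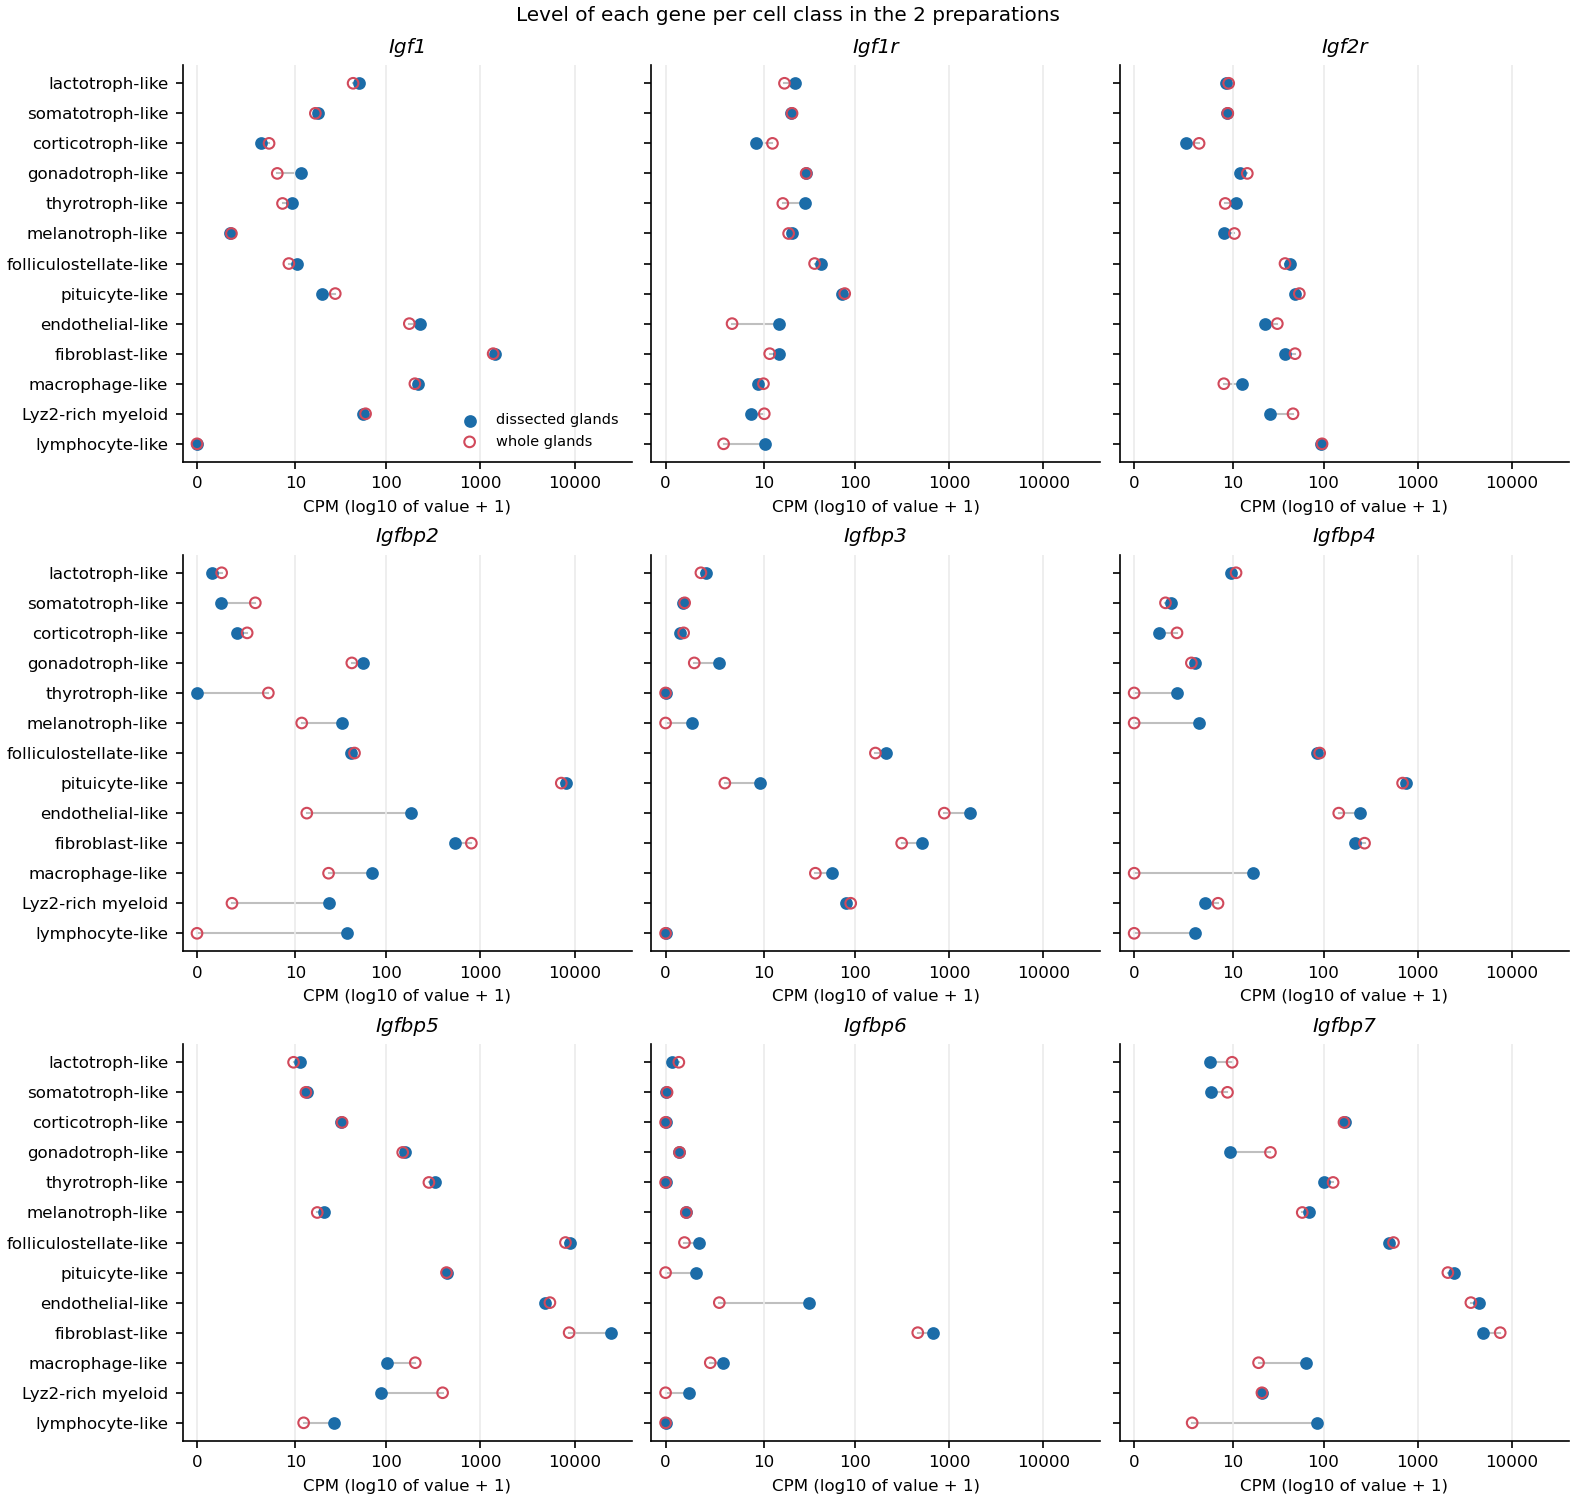
Level of each of the 9 genes in the 13 classes tested, in CPM on an axis of log10 (value + 1), with a filled point for dissected glands and an open circle for whole glands and a line joining the pair. Igfbp2 stands far to the right in pituicyte-like cells, Igfbp6 in fibroblast-like cells, and Igfbp5 in fibroblast-, folliculostellate- and endothelial-like cells.

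Igf1 encodes the secreted ligand. Fibroblast-like cells had 1427 CPM in the dissected preparation and 1362 CPM in the other, and between 1130 and 1455 CPM in each of the 4 libraries. Macrophage-like cells (215 and 201 CPM) and endothelial-like cells (229 and 176 CPM) came next and overlapped each other. The call in fibroblast-like cells had an adjusted p of 1.7e-25 (edgeR), in macrophage-like cells 6.6e-18 and in endothelial-like cells 6.8e-18. Among hormone cells Igf1 was highest in lactotroph-like cells, the prolactin cells, at 51.1 CPM in the anterior library, 52.7 in the posterior library, 43.7 in whole-gland lane 1 and 44.1 in lane 2. The posterior to anterior ratio in lactotroph-like cells was 1.03 (counting interval 0.937 to 1.13). Somatotroph-like cells, which make growth hormone, had 18.3 and 16.9 CPM, corticotroph-like cells 3.77 and 4.79 CPM and melanotroph-like cells 1.22 and 1.31 CPM. The values of the 2 preparations of lactotroph-like cells lay above those of each of the other 5 hormone classes named here, melanotroph-like cells included. Lymphocyte-like cells had 0 Igf1 UMIs of 616598 in 126 cells, which allows up to 4.87 CPM. Igf1 was detected in 45.3%, 59.6%, 42.9% and 42.6% of lactotroph-like cells (anterior, posterior and both whole-gland lanes), against 1.68% to 2.97% of corticotroph-like cells, a class near the bottom of the order. Lactotroph-like cells were the deeper of these classes, with median UMIs of 14915.5 to 27039 against 6856 to 12561. Thinned to 1000 UMIs per cell, 4.61% to 5.12% of lactotroph-like cells and 0% to 0.297% of corticotroph-like cells had an Igf1 UMI.

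In the whole gland, lactotroph-like cells carried a larger share of the Igf1 message than any other class. They made up 29.9% and 29.8% of the cells in the whole-gland lanes and carried 48.1% and 51.6% of the 2390 and 2008 Igf1 UMIs. Fibroblast-like cells were 0.888% and 0.756% of the cells and carried 10.8% and 10.4% of the Igf1 UMIs. Somatotroph-like cells carried 9.8% and 11.1%. Cells left without a class name carried 14.5% and 13.1%, and these include a cluster with a high prolactin level whose class was not resolved. These shares describe dispersed and filtered cells, and losses of a cell type on dispersal were not measured.

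**Figure D2:**
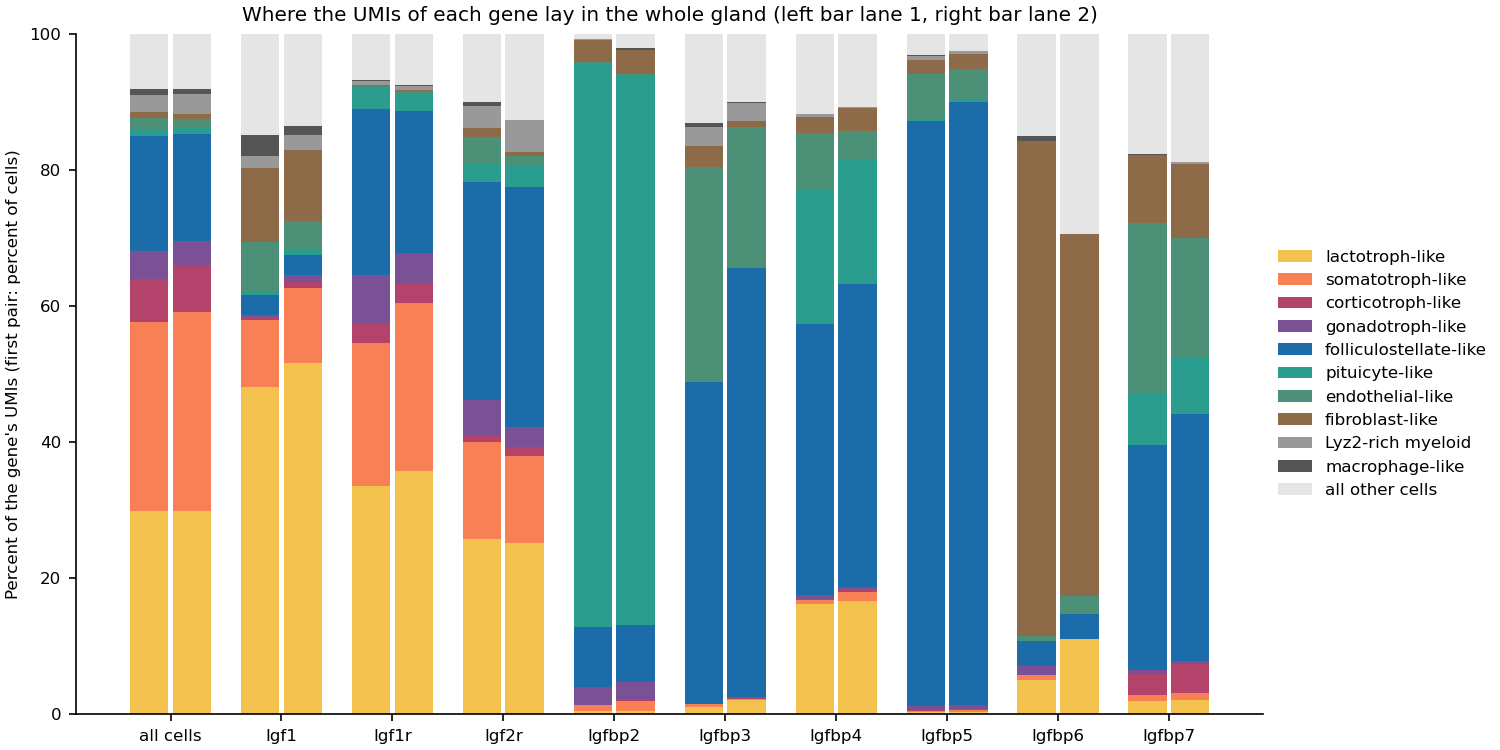
Share of each gene's UMIs, in percent, that fell in each class in whole-gland lane 1 (left bar of a pair) and lane 2 (right bar), with the share of cells as the first pair. Igfbp2 UMIs lay mainly in pituicyte-like cells, which were under 1% of the cells, and Igfbp5 UMIs mainly in folliculostellate-like cells.

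The receptors varied less between classes than the ligand or the binding proteins. Igf1r was at 73.1 and 77.7 CPM in pituicyte-like cells, 43.6 and 36.8 CPM in folliculostellate-like cells and 29.4 and 29.7 CPM in gonadotroph-like cells. These 3 classes did not overlap. The classes below them lay close together, with somatotroph-like cells at 20.2 and 20.8 CPM, melanotroph-like cells at 20.8 and 19.1 CPM and lactotroph-like cells at 22.4 and 17.1 CPM, and these 3 overlapped. Igf1r was called higher in pituicyte-like cells by a log2 fold change of 1.98 ± 0.14 (SE; adjusted p 7.9e-12, edgeR) and in folliculostellate-like cells by 1.12 ± 0.13 (adjusted p 5.8e-08). The latter fell to 0.98, just under the size limit, when lymphocyte-like cells were left out of the fit. The call in lactotroph-like cells (1.08 ± 0.13, adjusted p 5.3e-08) ended in 8 of the 14 alternatives. In endothelial-like cells, where it was called lower by −1.22 ± 0.31 (adjusted p 0.0016), Igf1r rested on 26 UMIs in the dissected and 6 in the whole-gland preparation. This call fell under the size limit under the coarser clustering (−0.97) and without whole-gland lane 1 (−0.87). Endothelial-like cells differed for Igf1r with preparation, at 14.7 and 4.06 CPM.

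Igf2r was highest in lymphocyte-like cells, at 94.8 and 96.5 CPM, where it rested on 28 and 31 UMIs. By library it was at 14.6 CPM in anterior (1 UMI in 25 cells), 119 CPM in posterior (27 UMIs) and 73.7 and 108 CPM in whole-gland lymphocyte-like cells. The anterior value lay below anterior folliculostellate-like cells, though its counting interval (0.370 to 81.4) included their level. Without the posterior library the mean in lymphocyte-like cells was 55.5 CPM, close to pituicyte-like cells, and the call was kept. Pituicyte-like cells (49.8 and 55.0 CPM), fibroblast-like cells (38.5 and 49.5 CPM) and folliculostellate-like cells (43.4 and 38.5 CPM) followed and overlapped in part. Corticotroph-like cells had the lowest level, 2.51 and 3.87 CPM. Igf2r was called higher in lymphocyte-like cells by 2.36 ± 0.26 on the log2 scale (adjusted p 3.5e-08, edgeR), in pituicyte-like cells by 1.36 ± 0.12 (5.4e-10) and in folliculostellate-like cells by 1.04 ± 0.10 (2.1e-09). The call in folliculostellate-like cells fell to 0.88 under the coarser clustering. In the whole gland, lactotroph-like and somatotroph-like cells carried 33.5% and 21.1% of Igf1r UMIs in lane 1 and 35.7% and 24.8% in lane 2. They carried 25.8% and 14.1% of Igf2r UMIs in lane 1 and 25.1% and 12.8% in lane 2, where they were 29.9% and 27.8%, and 29.8% and 29.3%, of the cells. Folliculostellate-like cells carried the largest share of Igf2r UMIs, 32.0% and 35.3%.

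Igfbp2 and Igfbp5 are neighbours on rat chromosome 9 and are transcribed from opposite strands, yet their messages lay in different glia. Their upstream regions are shown because the 2 genes had opposite differences between pituicyte-like and folliculostellate-like cells. Both sequences are the 250 bases before the annotated gene start in RefSeq, build GRCr8, written 5′ to 3′ on the gene's own strand. For Igfbp2 this is chr9:81864561-81864810 on the plus strand, and for Igfbp5 chr9:81914188-81914437 on the minus strand. Capitals mark matches to CACGTG (an E-box) and GGGCGG (a GC box), searched on both strands together with TATAAA and CCAAT.
Igfbp2: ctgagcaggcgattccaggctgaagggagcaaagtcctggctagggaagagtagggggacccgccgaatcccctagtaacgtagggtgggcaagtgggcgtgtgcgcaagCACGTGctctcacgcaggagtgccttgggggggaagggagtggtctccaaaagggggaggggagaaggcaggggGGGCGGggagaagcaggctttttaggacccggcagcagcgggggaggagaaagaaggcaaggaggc
Igfbp5: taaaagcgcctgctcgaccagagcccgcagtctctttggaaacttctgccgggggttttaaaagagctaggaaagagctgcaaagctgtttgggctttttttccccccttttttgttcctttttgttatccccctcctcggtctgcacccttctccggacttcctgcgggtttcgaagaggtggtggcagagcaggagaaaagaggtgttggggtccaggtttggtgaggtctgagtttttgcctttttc
The Igfbp2 sequence was 64.0% G or C and held 1 GC box and 1 E-box. The Igfbp5 sequence was 51.6% G or C and held 0 matches to the 4 motifs, and the median over all promoters was 51.2%. Over the 33469 promoters of this length, 30.5% held GGGCGG, 5.59% CACGTG, 12.9% TATAAA and 34.0% CCAAT. These matches describe the letters only, since binding was not measured.

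Igfbp2 marked pituicyte-like cells. It was at 8132 CPM in the posterior library and 7074 and 7293 CPM in the whole-gland lanes. Fibroblast-like cells came next at 533 and 801 CPM, so that the mean in pituicyte-like cells was 11.5 times theirs and the preparations did not overlap. Folliculostellate-like cells had 42.0 and 45.5 CPM and gonadotroph-like cells 55.8 and 42.5 CPM, which overlapped. Lactotroph-like cells had 0.438 and 0.823 CPM. Igfbp2 was detected in 99.2%, 100% and 100% of pituicyte-like cells in the posterior and whole-gland libraries (97.6%, 96.2% and 97.8% after thinning to 1000 UMIs), with a median of 44, 67 and 61 UMIs per cell. In anterior lactotroph-like cells, of higher median depth (14915.5 UMIs against 6308 in posterior pituicyte-like cells), 0.664% had a UMI and 0.142% after thinning. The log2 fold change against all other classes was 8.57 ± 0.27 (adjusted p 1.7e-19, edgeR). Pituicyte-like cells were 0.961% and 0.919% of whole-gland cells and carried 82.9% and 80.7% of the Igfbp2 UMIs.

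Igfbp5 covered folliculostellate-like cells almost completely. It was at 8880 CPM in the anterior library, 7148 CPM in the posterior library and 7901 and 7978 CPM in the whole-gland lanes. It was detected in 99.9%, 97.9%, 100% and 99.9% of these cells, and in 94.5% to 99.7% after thinning, with a median of 52 to 60 UMIs per cell. In anterior lactotroph-like cells 10.2% had an Igfbp5 UMI, and 1.14% after thinning, although they were deeper (14915.5 against 6417.5 median UMIs). Fibroblast-like cells had the highest mean level but differed between preparations, with 24363 CPM in dissected and 8684 CPM in whole glands, and the latter lay within the range of folliculostellate-like cells (8880 and 7936 CPM). In the anterior library fibroblast-like cells, at 2204 CPM, lay below folliculostellate-like and endothelial-like cells (6261 CPM). Endothelial-like cells had 4788 and 5435 CPM, pituicyte-like cells 444 and 436 CPM and lactotroph-like cells 11.2 and 9.52 CPM. Against all other classes Igfbp5 was called higher in fibroblast-like cells (log2 fold change 6.73 ± 0.20, adjusted p 6.8e-20, edgeR), folliculostellate-like cells (5.64 ± 0.20, 1.2e-18) and endothelial-like cells (4.71 ± 0.21, 1.4e-16). Folliculostellate-like cells were 16.9% and 15.8% of whole-gland cells and carried 86.0% and 88.6% of the 77090 and 63061 Igfbp5 UMIs.

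Igfbp3, whose protein carries most of the IGF in blood, was led by vessels here. Endothelial-like cells had 1659 and 890 CPM, fibroblast-like cells 520 and 314 CPM, and folliculostellate-like cells 212 and 165 CPM, and these 3 classes did not overlap between preparations. Libraries differed more: endothelial-like cells had 470 CPM in the anterior library, 2029 in the posterior library and 989 and 708 in the whole-gland lanes, and fibroblast-like cells 351, 536, 468 and 104 CPM. The anterior endothelial-like value lay below the posterior fibroblast-like one, although within each library endothelial-like cells were the higher of the pair. In both classes the libraries held different mixes of the clusters described below. Lyz2-rich myeloid cells had 80.8 and 90.1 CPM, above macrophage-like cells at 57.0 and 37.5 CPM. Hormone cells were near 0, with 1.69 and 1.37 CPM in lactotroph-like cells. Lymphocyte-like and thyrotroph-like cells had 0 UMIs, which allows up to 4.87 and 2.14 CPM. The calls against all classes had adjusted p of 1.1e-24 in endothelial-like, 7.5e-19 in fibroblast-like and 2.8e-19 in folliculostellate-like cells (edgeR). In the whole-gland lanes folliculostellate-like cells carried 47.3% and 63.0% of the Igfbp3 UMIs and endothelial-like cells 31.4% and 20.8%.

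Igfbp4, which inhibits IGF action in most assays and is cleaved by the protease PAPP-A, was highest in pituicyte-like cells at 754 and 693 CPM. Fibroblast-like cells (216 and 274 CPM) and endothelial-like cells (248 and 145 CPM) overlapped, and folliculostellate-like cells (84.2 and 91.0 CPM) lay below both. Lactotroph-like cells had 9.52 and 11 CPM, above the other hormone classes. The call in pituicyte-like cells was 6.19 ± 0.15 on the log2 scale (adjusted p 1.3e-21, edgeR) and in folliculostellate-like cells 3.0 ± 0.19 (3.2e-13).

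Igfbp6, a binding protein that prefers IGF2, was the most restricted of the set. Fibroblast-like cells had 684 and 466 CPM, and the next class, endothelial-like cells, had 32.3 and 2.70 CPM, so that the means differed 32.8-fold. Of the endothelial-like UMIs, 57 came from the posterior library (42.4 CPM), 0 from the anterior library and 1 and 3 from the whole-gland lanes. Summed fibroblast markers moved with them, at 1611 CPM (5 of 5 with a UMI) in posterior and 11.9 CPM (3 of 5, Dcn and Pdgfra at 0) in anterior endothelial-like cells, and their part in the Igfbp6 level was not tested. Without the posterior library the endothelial-like call was lost (adjusted p 0.106).

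Igfbp7 was broad among the non-endocrine cells. Fibroblast-like cells had 4888 and 7490 CPM, endothelial-like cells 4496 and 3663 CPM, pituicyte-like cells 2403 and 2090 CPM and folliculostellate-like cells 495 and 555 CPM, and no neighbours among these 4 overlapped between preparations. The order of the first pair turned in the posterior library, where endothelial-like cells had 5032 CPM and fibroblast-like cells 4605 CPM. In the anterior library and the whole-gland lanes endothelial-like cells had 2777, 3710 and 3578 CPM and fibroblast-like cells 7907, 7049 and 8095 CPM. It was called higher in all 4, by 5.89 ± 0.17, 5.12 ± 0.18, 4.24 ± 0.19 and 2.05 ± 0.21 on the log2 scale (adjusted p 6.1e-20, 9.2e-19, 1.9e-16 and 6.2e-09, edgeR). Among hormone cells it was highest in corticotroph-like cells, at 168 and 165 CPM, and lowest in lactotroph-like cells (5.42 and 9.88 CPM) and somatotroph-like cells (5.55 and 8.72 CPM).

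The 2 glia-like classes carried different binding proteins. Folliculostellate-like cells had more Igfbp5 (8880 and 7936 against 444 and 436 CPM) and Igfbp3 (212 and 165 against 9.08 and 3.24 CPM). Pituicyte-like cells had more Igfbp2 (8132 and 7171 against 42.0 and 45.5 CPM), Igfbp4 (754 and 693 against 84.2 and 91.0 CPM), Igfbp7 (2403 and 2090 against 495 and 555 CPM) and Igf1 (20.2 and 28.1 against 10.4 and 8.38 CPM). The values of the 2 classes did not overlap for any of these 6 genes. In edgeR's test of folliculostellate-like against pituicyte-like cells, 2 of 9 genes were called higher (17.6% of all genes) and 4 lower (12.1%). The log2 fold changes were 4.35 ± 0.44 for Igfbp5 (adjusted p 6.5e-09) and 4.76 ± 0.23 for Igfbp3 (1.9e-14). They were −7.32 ± 0.65 for Igfbp2 (5.1e-10), −2.95 ± 0.18 for Igfbp4 (4.8e-13), −2.02 ± 0.34 for Igfbp7 (2.0e-05) and −1.09 ± 0.18 for Igf1 (1.5e-05). The calls of Igfbp4 and Igfbp7 were lost with limma-trend (adjusted p 0.109 and 0.123), and that of Igf1 fell under the size limit in 3 alternatives (−0.82 to −0.97). Igf1r differed by −0.79 ± 0.16 (adjusted p 1.2e-04), below the size limit, and Igf2r by −0.30 ± 0.14 (0.0716). The median over the 9 genes was −0.79, and over all genes 0.05.

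Against the mean of the hormone classes, folliculostellate-like cells carried more of the binding proteins and of Igf2r. For Igfbp2 this did not hold against each class, since gonadotroph-like cells (55.8 and 42.5 CPM) overlapped folliculostellate-like cells (42.0 and 45.5 CPM). The contrast used the mean, on the log scale, of 5 hormone classes (lactotroph-, somatotroph-, corticotroph-, gonadotroph- and thyrotroph-like). Plain means of their CPM are given here and are not the comparator of the fitted fold changes. They were 110 and 97.8 CPM for Igfbp5, 1.05 and 0.704 CPM for Igfbp3 and 3.40 and 3.40 CPM for Igfbp4. For Igfbp7 they were 58.0 and 67.4 CPM, for Igfbp2 11.7 and 10.7 CPM and for Igf2r 8.51 and 8.93 CPM. The test called 7 of 9 genes higher (22.7% of all genes) and 0 lower (11.1%). The log2 fold change was 7.23 ± 0.26 for Igfbp5 (adjusted p 1.3e-18, edgeR), 5.05 ± 0.22 for Igfbp4 (9.8e-17), 3.90 ± 0.22 for Igfbp7 (3.4e-14), 3.39 ± 0.48 for Igfbp2 (8.2e-07) and 2.07 ± 0.12 for Igf2r (5.0e-14). Igfbp3 was called with a fitted change of 8.37 ± 0.19 that includes thyrotroph-like cells at 0 UMIs. With limma-trend and a prior count of 2 it was 7.29 ± 0.41 (adjusted p 6.4e-10). The seventh call, Igfbp6 (adjusted p 0.0226), came from 11 and 9 folliculostellate-like UMIs and was lost without the anterior library (adjusted p 0.324) and with limma-trend (0.117). Igf1 (−0.65 ± 0.17, adjusted p 0.0017) and Igf1r (0.74 ± 0.13, 1.5e-05) did not reach the size limit. The median over the 9 genes was 3.39, that of Igfbp2, and over all genes 0.08.

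**Figure D3:**
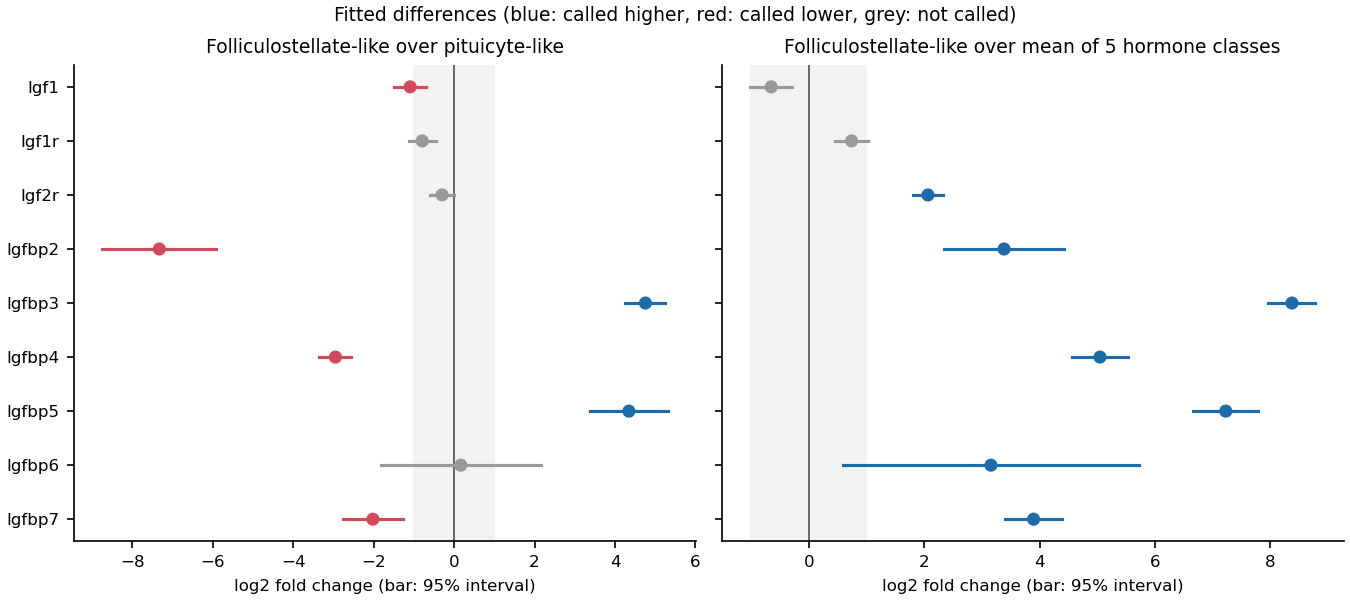
Fitted log2 fold change of each gene with its 95% interval, for folliculostellate-like over pituicyte-like cells (left) and over the mean of 5 hormone classes (right). The grey band is the size limit of 1. Igfbp2 is farthest to the left in the first panel, and Igfbp3 and Igfbp5 are farthest to the right in both.

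Hormone classes had separate patterns when each was set against the mean of the other 4. Lactotroph-like cells had 4 of 9 genes called higher (9.54% of all genes) and 2 lower (6.41%). Igf1 was higher by 3.35 ± 0.12 on the log2 scale (adjusted p 2.1e-17, edgeR) and Igfbp4 by 3.68 ± 0.32 (7.0e-10). Igfbp3 was also called, on 1.69 and 1.37 CPM, but gonadotroph-like cells had 2.64 and 1.01 CPM and the size rests on thyrotroph-like cells at 0 UMIs. Igf2r was higher by 1.04 ± 0.15 (2.7e-06), which fell under the size limit in 8 of 14 alternatives. Igfbp5 (−1.83 ± 0.36, 1.9e-04) and Igfbp7 (−1.51 ± 0.32, 3.4e-04) were lower. The Igfbp7 call was lost under the coarser clustering (−0.70, adjusted p 0.0736) and with limma-trend (adjusted p 0.209). Somatotroph-like cells had 0 called higher (7.36%) and 2 lower (5.54%), Igfbp5 by −2.11 ± 0.38 (7.2e-05) and Igfbp7 by −2.35 ± 0.34 (5.1e-06).

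Corticotroph-like cells, the ACTH cells, stood out by Igfbp7, called higher by 2.79 ± 0.26 on the log2 scale (adjusted p 3.6e-09, edgeR). They had 1 gene called higher (7.86%) and 3 lower (7.1%), namely Igf1 (−2.09 ± 0.27, 1.1e-06), Igf1r (−1.37 ± 0.22, 1.7e-05) and Igf2r (−1.89 ± 0.29, 9.0e-06). Igfbp7 was detected in 62.6%, 79.0%, 61.6% and 63.2% of corticotroph-like cells (17.1%, 21.8%, 15.8% and 11.6% thinned), against 3.38% of anterior somatotroph-like cells (0.542% thinned), whose median depth was 9180 against 6856 UMIs. Gonadotroph-like cells had 2 called higher (8.66%) and 0 lower (4.7%): Igfbp2 by 4.50 ± 0.57 (6.6e-07) and Igfbp5 by 1.92 ± 0.30 (1.5e-05). Their Igfbp2 level was 55.8 CPM in the anterior library and 39.5 and 46.5 CPM in the whole-gland lanes, against at most 6.02 CPM in the other 4 classes in these libraries. Thyrotroph-like cells had 2 called higher (4.41%) and 1 lower (2.78%): Igfbp5 by 2.98 ± 0.32 (2.4e-07, from 333 and 284 CPM), Igfbp7 by 2.05 ± 0.35 (1.7e-04) and Igf1 lower by −1.18 ± 0.40 (0.0494). The Igf1 call rested on 5 and 6 UMIs and ended in 10 alternatives, among them the fit without the anterior library, where the class had 1 sum. The coarser clustering had no thyrotroph-like class in its tests and could not check it.

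Within classes, clusters differed in the same genes. These clusters are described with counting intervals and no test. Folliculostellate-like cells fell into 3 clusters, each present in all 4 libraries. In the clusters named 1 and 2, Igfbp5 was at 10069 and 10457 CPM, Igfbp3 at 328 and 347 CPM, Igfbp4 at 153 and 156 CPM and Igfbp7 at 731 and 1019 CPM. In cluster 3, which had the epithelial keratin Krt17 at 521 CPM against 47.5 and 1.69 CPM, Igfbp5 was at 6202 CPM (6161 to 6243), Igfbp3 at 43.5 CPM (40.1 to 47.0), Igfbp4 at 26.2 CPM (23.6 to 28.9) and Igfbp7 at 280 CPM. Igf1r ran the other way, at 54.3 CPM (50.6 to 58.3) in cluster 3 against 28.2 (25.3 to 31.4) and 32.6 (24.8 to 42.1). The prolactin message Prl was also higher in cluster 3, at 48973 CPM against 9506 and 20039 CPM, and its part in these differences was not tested.

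Lactotroph-like clusters differed for the ligand. Igf1 was at 52.8, 52.6 and 42.0 CPM in 3 of them and at 13.2 CPM (10.9 to 15.8) in the remaining cluster, numbered 12, while Igfbp4 was at 31.3 CPM (27.8 to 35.2) in that cluster and at 12.1, 8.10 and 3.91 CPM in the others. Cluster 12 was seen in all 4 libraries, with 56 to 234 cells.

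Fibroblast-like cells held 2 clusters of unlike origin. Cluster 1 came from the posterior library for 123 of its 139 cells and had Igfbp5 at 28372 CPM and the pericyte marker Rgs5 at 144 CPM. Cluster 2 had 25, 12, 38 and 32 cells in the anterior, posterior and whole-gland libraries, Igfbp5 at 2351 CPM and Rgs5 at 4744 CPM. Igf1 was close in both, at 1464 CPM (1389 to 1542) and 1290 CPM (1184 to 1403). Summed mural markers in the class were 8192 CPM (4 of 5 with a UMI, Myh11 at 0) in the anterior, 519 CPM (5 of 5) in the posterior and 4159 and 4196 CPM in the whole-gland libraries. Igfbp5 in the class moved the opposite way, at 2204, 26436, 7965 and 9668 CPM. The makeup of the class by library and the level of Igfbp5 thus cannot be told apart. Values of the other genes in this class by library, Igfbp2 included, also compare different mixes of these clusters. Endothelial-like cells held 3 clusters. Cluster 1, found in all libraries, had Igfbp3 at 616 CPM, and clusters 2 and 3, with 114 of 123 and 55 of 77 cells from the posterior library, had 2601 and 2473 CPM. All 38 anterior endothelial-like cells were in cluster 1, against 31 of 200 posterior ones. Values of this class by library thus compare different mixes of these clusters.

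**Figure D4:**
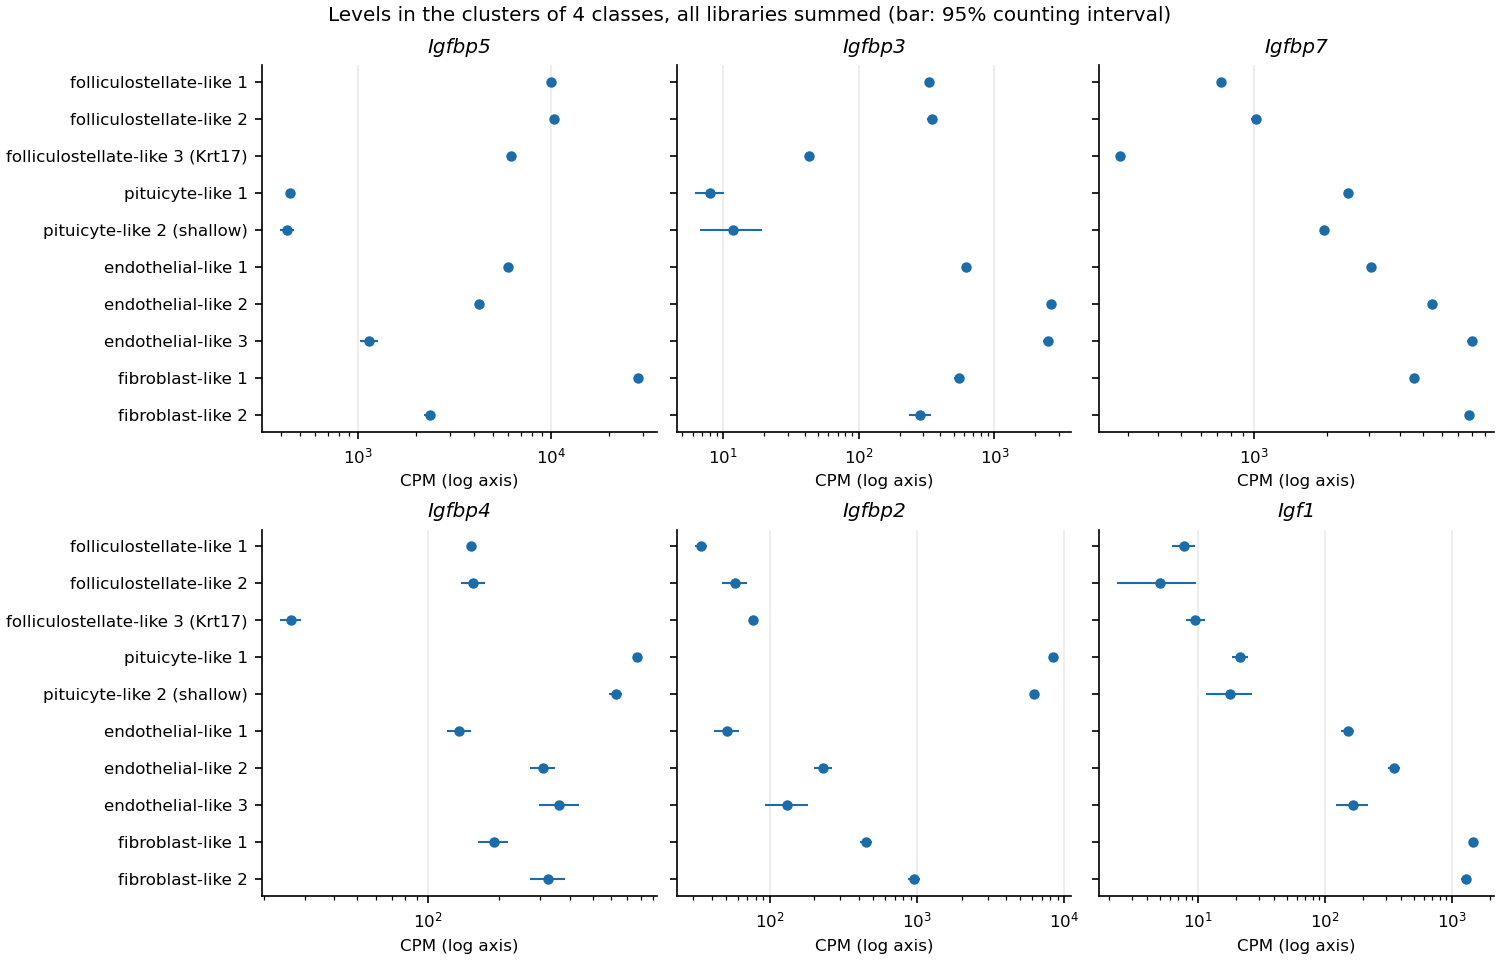
Level of 6 genes in the clusters of the folliculostellate-, pituicyte-, endothelial- and fibroblast-like classes, in CPM on a log axis with 95% counting intervals, all libraries summed. Folliculostellate-like cluster 3 lies left of clusters 1 and 2 for Igfbp5, Igfbp3, Igfbp7 and Igfbp4, and fibroblast-like cluster 1 lies far right of cluster 2 for Igfbp5.

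The posterior library differed from the anterior library within classes, and the 5 widest ratios were those of Igfbp2. With 1 library per lobe there is no test, and the values compare these libraries. Of 81 pairs of gene and class, 67 had UMIs in both libraries and 14 had 0 UMIs in 1 or both, which leaves no ratio. Of the 67, 16 had a counting interval wholly beyond 2-fold, each with the higher value in the posterior library: 6 of Igfbp2, 4 of Igfbp7, 2 each of Igfbp4 and Igfbp5, and 1 each of Igfbp3 and Igfbp6. Igfbp2 was at 0.438 CPM in anterior and 21.6 CPM in posterior lactotroph-like cells, a ratio of 49.2 (28.8 to 91.3). It was at 0.803 and 38.5 CPM in somatotroph-like cells (47.9, 26.3 to 97.3) and at 1.68 and 65.4 CPM in corticotroph-like cells (39.1, 14.8 to 146). In folliculostellate-like cells it was at 42.0 and 134 CPM (3.18, 2.78 to 3.65). Lymphocyte-like cells had 0 UMIs in the anterior library and 11 in the posterior library. It was at 4.77 and 237 CPM in endothelial-like cells (49.7, 13.6 to 412) and at 1.29 and 59.0 CPM in Lyz2-rich myeloid cells (45.9, 7.63 to 1873). Fibroblast-like cells, with their own high level, had 647 and 522 CPM. In endothelial-like and fibroblast-like cells these values compare different mixes of clusters.

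The other pairs lay in vascular, connective tissue and hormone cells. In fibroblast-like cells Igfbp5 was at 2204 CPM in the anterior and 26436 CPM in the posterior library (interval of the ratio 10.4 to 13.8), and Igfbp6 was 5.15 times higher in the latter (2.99 to 9.73). Igfbp3 was 4.32 times higher in endothelial-like cells (3.73 to 5.01). These libraries held different mixes of the clusters of both classes. Igfbp4 rested on few UMIs and was 4.90 times higher in somatotroph-like cells (2.85 to 8.73) and 12.4 times in corticotroph-like cells (2.91 to 111).

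Markers of pituicytes moved with Igfbp2 in the hormone, lymphocyte-like and endothelial-like cells given here. In the other classes S100b or Igfbp2 went the other way. The sum of the 7 pituicyte markers was 3.91 CPM (3 of 7 with a UMI) in anterior and 15.3 CPM (7 of 7) in posterior lactotroph-like cells. It was 13.1 and 29.4 CPM in somatotroph-like, 5.86 and 42.8 CPM in corticotroph-like, 2.64 and 69.1 CPM in gonadotroph-like and 14.6 and 141 CPM in lymphocyte-like cells, against 2700 CPM in posterior pituicyte-like cells. In endothelial-like cells S100b was at 2.39 CPM in the anterior and 34.9 CPM in the posterior library, and Scn7a at 0 and 109 CPM. The other markers there were at 0 in the anterior library and at 0.744 (Gfap) to 18.6 CPM (Col25a1) in the posterior library. In fibroblast-like cells S100b was at 32.9 CPM in the anterior and 83.1 CPM in the posterior library, while Igfbp2 was at 647 and 522 CPM. Both of these classes held different mixes of clusters in these libraries. In Lyz2-rich myeloid cells S100b was at 12.9 and 7.87 CPM, while Igfbp2 rose. Scn7a (1.29 and 9.84 CPM), Lhx2 (0 and 7.87 CPM), Nkx2-1, Rax and Col25a1 (each 0 and 1.97 CPM) rose with it, on at most 5 UMIs each. Gfap was at 0 in both libraries. In the whole-gland lanes S100b of these myeloid cells was at 93.1 and 43.6 CPM. In folliculostellate-like cells the sum was 963 and 812 CPM, of which S100b, a marker of both classes, made up 955 and 787 CPM. Of the other 6 markers there, Rax was at 6.36 and 6.03 CPM and 5 were higher in the posterior library: Nkx2-1 (0 and 2.76 CPM), Lhx2 (0.347 and 2.51 CPM), Scn7a (0.462 and 8.79 CPM), Col25a1 (1.39 and 4.52 CPM) and Gfap (0.116 and 0.753 CPM). The gain in Igfbp2 equalled 0.26% of the posterior pituicyte-like level in lactotroph-like cells, 0.463% in somatotroph-like, 0.784% in corticotroph-like and 0.73% in gonadotroph-like cells. It was 1.13% in folliculostellate-like, 0.596% in lymphocyte-like, 0.71% in Lyz2-rich myeloid and 2.86% in endothelial-like cells. Whether the extra Igfbp2 belonged to these cells was not tested. Igfbp7, also high in pituicyte-like cells, was 3.03 times higher in posterior lactotroph-like cells (2.45 to 3.75), 4.14 times in somatotroph-like cells (3.12 to 5.53) 5.26 times in gonadotroph-like cells (3.23 to 8.80) and 7.04 times in Lyz2-rich myeloid cells (2.62 to 23.7). Igfbp5 in gonadotroph-like cells was 2.78 times higher (2.44 to 3.18). Igf1 was not among the 16 pairs.

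**Figure D5:**
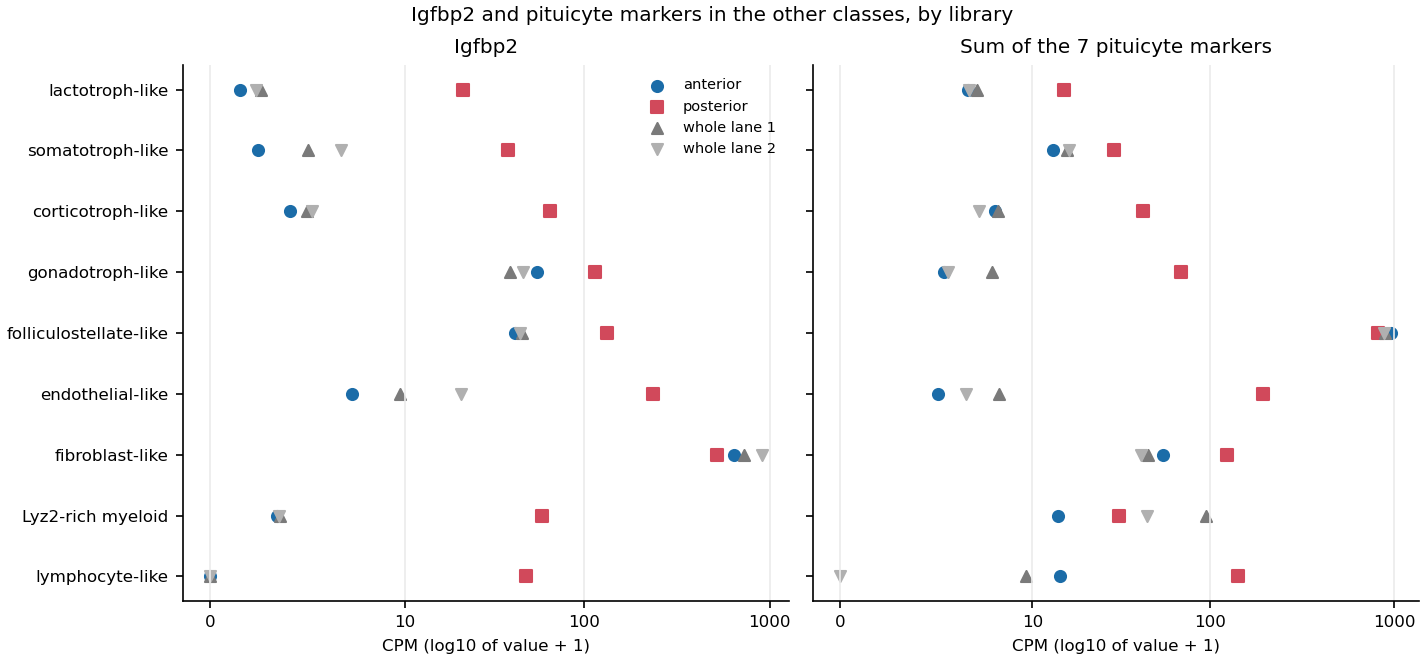
Igfbp2 (left) and the sum of the 7 pituicyte markers (right) in 9 classes other than pituicytes, by library, in CPM on an axis of log10 (value + 1). The red squares of the posterior library lie to the right of the other 3 libraries in 8 of the 9 classes for Igfbp2, with fibroblast-like cells the exception.

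Other genes of the pathway came from a list of 46, of which 35 passed the low-count filter. Igf2, the other ligand, was found mainly in fibroblast-like cells at 44.1 and 90.2 CPM, and folliculostellate-like cells had 1.16 and 1.23 CPM. Ins1, Igfbp1 and Igfals reached at most 0.221, 0.676 and 0.037 CPM in any sum, and Ins2 was at 0. Igfbpl1, a binding protein-like gene, was at 374 and 314 CPM in pituicyte-like and 8.67 and 10.3 CPM in folliculostellate-like cells. Of the proteases and their inhibitors, Htra1, a secreted serine protease that cuts IGF binding proteins, was at 506 and 473 CPM in pituicyte-like and 85.8 and 82.2 CPM in folliculostellate-like cells. Htra3 was highest in fibroblast-like cells (420 and 250 CPM) and Stc1, an inhibitor of PAPP-A, in endothelial-like cells (258 and 73.0 CPM). The insulin receptor Insr was highest in gonadotroph-like cells (24.5 and 21.1 CPM), Insrr in fibroblast-like cells (16.9 and 8.73 CPM), and so were Lrp1 (683 and 611 CPM) and the growth hormone receptor Ghr (46.9 and 34.9 CPM).

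Between folliculostellate-like and pituicyte-like cells, 8 of the 35 pathway genes were called higher and 8 lower, against 17.6% and 12.1% of all genes. Among those higher were Ghr (3.18 ± 0.50 on the log2 scale, adjusted p 8.3e-06, edgeR) and Socs2 (4.39 ± 0.23, 1.4e-14), a feedback inhibitor induced by growth hormone. Cish (5.21 ± 0.34, 1.0e-12), of the same family, and the insulin receptor substrate Irs2 (2.81 ± 0.16, 1.3e-13) are added after their values were seen. Among those lower were Igfbpl1 (−5.04 ± 0.18, 3.3e-17), Htra1 (−2.39 ± 0.27, 3.0e-08), Pik3r1, a regulatory subunit of PI3 kinase (−2.41 ± 0.13, 4.8e-14), and the lysosomal enzymes Ctsd (−1.28 ± 0.17, 6.6e-07) and Gaa (−1.02 ± 0.19, 8.9e-05). Against hormone cells, 15 of 35 were called higher and 2 lower, against 22.7% and 11.1% of all genes. They included Igfbpl1 (5.96 ± 0.40, 1.7e-12), Htra1 (5.59 ± 0.32, 2.3e-14), Socs2 (2.62 ± 0.11, 9.2e-17), Lrp1 (2.42 ± 0.18, 9.0e-12) and Ghr (2.15 ± 0.27, 1.5e-07). Stc2 (−2.01 ± 0.88, 0.048) and Gaa (−1.56 ± 0.16, 4.5e-09) were lower.

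The genes with the most similar levels across the 26 sums of class and preparation were found by Pearson correlation of log2 (CPM + 1) among 6427 genes with at least 50 CPM in a sum. The sums share cells' source and depth, so the coefficients are a description. For Igfbp6 these were C7, Tcf21 and Dnmt3l (r 0.984, 0.982 and 0.980), and for Igfbp4 Fstl1, Htra1 and Il1r1 (0.95, 0.945 and 0.943). Igfbp7 was nearest to Sept4 (0.948), Tmem205 and Ano6, and Igfbp3 to Tfpi2 (0.941), Csf1 and Mylk. Igfbp5 was nearest to Ehd2 (0.926), Cyr61 and Emp1, and Igfbp2 to F3 (0.90), Crot and Phlda3. Coefficients were lower for Igf1r with Mfap3l (0.888), Plxnb1 and Baalc, for Igf1 with Naglu (0.874), Mmp2 and Nes, and for Igf2r with G0s2 (0.872), Irf7 and Flna. Htra1 was thus the one pathway gene among the 3 nearest genes of any of the 9.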

How the data were processed

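The deposited matrix holds UMI counts, as whole numbers per gene and cell barcode, for 4 libraries in 1 file, and the barcode suffix gives the library per the labels. It was made with Cell Ranger 3.1, per the submitters' processing notes. The genome build, the annotation and whether reads were equalized between libraries are not given in the sources used here.

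Of 32455 barcodes, 20381 had 1000 or more UMIs, 500 or more genes and no more than 20% of UMIs from mitochondria. Scrublet, run on each library (rate 0.06), scored 604 cells above 0.25, and these were removed as doublets, as were 53 cells with over 1% globin UMIs. Scanpy 1.11.5 scaled cells to 10000, logged them and clustered on 2000 variable genes, 30 principal components and 15 neighbours (Leiden, resolution 1.0). The globin limit and the splitting of the vascular and connective tissue clusters (resolution 0.5) were added after the clusters were seen. Names of rebuilt clusters may differ from the study's own.

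The 13 classes that reached 50 cells in each preparation gave 26 sums of UMIs. Schwann-like cells and cells without a class name were not tested. The edgeR 4.0.16 quasi-likelihood test (R 4.3.3; TMM, filterByExpr, terms for class and preparation, 12 residual degrees of freedom) was adjusted over 13864 genes and was checked on simulated counts. The SE is the log2 fold change divided by the square root of F. DESeq2 1.42.0, limma 3.58.1 with a prior count of 2, RLE scaling, other filters, coarser clusters and left-out libraries were alternatives. Counting intervals are exact Poisson (95%), and limits for 0 UMIs are 3 counts of the total. Thinning drew 1000 UMIs per cell.

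The text names all 9 genes, pathway ligands and receptors, up to 3 other pathway genes per role with at least 50 CPM, and the 3 genes most like each member. The members, lists and markers were chosen with earlier results of these data known. Of the pathway list, Pappa and Irs4 were not matched to exactly 1 row, and of the markers Dio2, Pecam1, Cd79a, Hba1 and Hba-a1 were not matched. Promoter sequences are from RefSeq (GRCr8), in which 9 of 9 genes had an entry, and their coordinates are not those of the count files.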

Additional observations from a re-analysis of the deposited data

Results flagged for a closer look

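Cells left without a class name, which enter no comparison, held high levels of some of the genes. A cluster of 65 cells that carried mural markers together with the endothelial marker Plvap had Igfbp3 at 2012 CPM (1060 UMIs, 1893 to 2137), above the highest preparation value of a tested class (1659 CPM). Of its cells, 52 came from the posterior library, where endothelial-like cells alone had 2029 CPM, inside that interval. A cluster of 28 cells with mural and fibroblast markers had Igfbp3 at 2598 CPM (300 UMIs, 2312 to 2909), beside 2601 and 2473 CPM in endothelial-like clusters 2 and 3. The same 28 cells had Igf2r at 165 CPM (19 UMIs, 99.1 to 257) against at most 96.5 CPM in a preparation of a tested class, but posterior lymphocyte-like cells alone had 119 CPM, inside that interval. They had Igfbp7 at 8677 CPM (8148 to 9231) against at most 7490 CPM in a preparation and 8095 CPM (7638 to 8571) in a library, that of whole-gland lane 2 fibroblast-like cells. These cells had been set aside for their mixed markers, and whether they are doublets was not tested beyond the doublet score. The groups here have too few samples for a check of single samples against their group.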

How the results depend on the processing

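Of 180 results for the 9 genes, 88 were called. Of these, 63 were also called under each of the 14 alternatives that could fit them, 25 were lost in at least 1, and 9 of the 25 were lost only when a library was left out. Of the 25, 10 were lost somewhere at an adjusted p of 1, 4 of them only so, where edgeR gave no usable error. The direction of 1 called result turned: Igfbp2 in endothelial-like cells, called at 1.62 on the log2 scale, ranged from −0.23 without the posterior library to 1.96 without whole-gland lane 1. Calls against all classes numbered 34 higher and 24 lower, and the latter became 39 with DESeq2 and 42 with limma-trend. Between folliculostellate-like and pituicyte-like cells 2436 genes were called higher and 1677 lower, against 1596 and 870 with limma-trend. Of the 27 most similar genes, 14 were the same with a pseudocount of 10. The cause was not tested.

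Leaving out whole-gland lane 1 gave 36 calls higher and 27 lower against all classes, and leaving out lane 2 gave 33 and 23. Such totals are not given without the posterior or the anterior library. Pituicyte-like and melanotroph-like cells, or thyrotroph-like cells, then had 1 sum. Among hormone classes, leaving out the posterior library or either lane gave 8 to 10 higher and 8 lower (9 and 8 with all libraries). Between folliculostellate-like and pituicyte-like cells, 2345 to 2562 of all genes were called higher and 1496 to 1723 lower. This is without the anterior library or either whole-gland lane, since without the posterior library pituicyte-like cells had 1 sum. Against hormone cells, leaving out each library gave 3241 to 3396 higher and 1363 to 1563 lower (3152 and 1541 with all libraries). Then 1 preparation can rest on 1 library, and without the anterior library hormone and folliculostellate-like classes took their dissected value from the posterior library. The limma-trend fit and the fit without lymphocyte-like cells were chosen after seeing the data.

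No paired analysis was possible because, beyond the preparation term already in the test, the only replicate numbers are those of the 2 whole-gland lanes, which come from 1 suspension. Without the preparation term 1 call was lost, that of Igfbp2 in thyrotroph-like cells (adjusted p 0.0526). Small classes limit depth: thyrotroph-like cells numbered 140 and lymphocyte-like cells 126 over the 4 libraries, so levels of a few CPM could not be measured there.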

Other observations

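Schwann-like cells, seen mainly in the posterior library (63 cells there, 0 in the anterior library and 8 and 11 in the whole-gland lanes), were too few to test. In the posterior library they had Igfbp7 at 6103 CPM, with a UMI in 98.4% of cells before and after thinning, and Igfbp4 at 550 CPM. In the same library fibroblast-like cells had Igfbp7 at 4605 CPM and pituicyte-like cells had Igfbp4 at 754 CPM. Igfbp6 had 0 UMIs in these Schwann-like cells, which allows up to 10.4 CPM.

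Pituicyte-like cells held 2 clusters. The cluster with the deeper cells had Igfbp2 at 8334 CPM, Igf1r at 79.3 CPM and Igfbp4 at 768 CPM. The cluster with a median of 1959 UMIs per cell had 6181, 36.6 and 625 CPM, and its Gh1 and Prl levels were 18093 and 36234 CPM against 870 and 1765 CPM. The part of depth and of hormone messages in these differences was not tested.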
